A study of Mus musculus with 24 samples.

Results

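Immunoglobulin genes were followed in RNA-seq libraries of regulatory T cells (Treg) sorted from mouse spleen. The members were the listed genes of the normalized count table whose symbol marks a heavy, kappa or lambda V gene, a kappa or lambda constant gene, 1 of the 8 heavy chain constant genes or Jchain. In all, 100 of the 17464 listed genes met this rule, 87 of them V genes and the other 13 constant genes or Jchain. The annotation holds 360 such genes, and those outside the table were not analysed here. The 87 V genes were 42 heavy, 43 kappa and 2 lambda genes. The mice were wild-type C57BL/6JRccHsd animals, 4 young (2 months old) and 4 old (26 months old). From each mouse, 3 subsets gave 1 library each, and a subset was defined by its gate. Resting Treg cells (rTreg) were CD62L+CD44-, activated Treg cells (aTreg) were CD62L-CD44+, and kTreg cells carried KLRG1, an inhibitory receptor of antigen-experienced T and NK cells. The 24 libraries thus formed 6 groups of 4, and libraries with the same number within an age came from the same mouse. Values are normalized counts, the reads of a gene divided by 1 size factor per library.

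Antibodies are made by B cells and, in large amounts, by the plasma cells that arise from them. A B cell joins 1 V segment to D and J segments at the heavy chain locus and 1 V segment to a J segment at the kappa or the lambda locus, so each clone of cells transcribes its own pair of V genes. A naive B cell makes IgM and IgD from Ighm and Ighd, and class switching replaces these with Ighg3, Ighg1, Ighg2b, Ighg2c, Ighe or Igha. Plasma cells devote much of their RNA to these genes and to Jchain, whose protein joins IgM and IgA into polymers. T cells make no antibody, but transcripts of the unrearranged or partly rearranged heavy chain locus, including Ighm, are known in T cells.

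The constant genes lie together. On GRCm39 with the GENCODE M39 annotation the heavy chain genes are on chromosome 12, minus strand, from Igha (113218450 to 113223856) to Ighm (113382178 to 113386350), with Ighe, Ighg2c, Ighg2b, Ighg1, Ighg3 and Ighd between them. Igkc is on chromosome 6, plus strand (70703419 to 70703950), the listed lambda constant genes are on chromosome 16, and Jchain is on chromosome 5, minus strand (88667668 to 88675750). The V genes share a promoter element that the choice of members did not use. The octamer ATGCAAAT, bound by Oct1 and Oct2 with the coactivator that Pou2af1 encodes, was searched on both strands from 250 bases before to 50 bases after the annotated start. It was found in 37 of 42 heavy V promoters (88.1%), each time as read toward the gene. It was found in 30 of 43 kappa V promoters (69.8%) and in 2 of 2 lambda V promoters, each time on the opposite strand, where it reads ATTTGCAT. None of the 13 promoters of the constant genes and Jchain held it. Of V genes annotated as functional but not listed, 54 of 71 heavy (76.1%) and 43 of 57 kappa (75.4%) promoters held it, and the difference from the listed genes was not tested. Among 21770 protein-coding genes the share was 1.68%, and among all 78287 annotated genes it was 2.3%. The octamer stood a median of 105 bases before the start in heavy V promoters and 83.5 bases in kappa V promoters.

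Windows of 60 bases around the octamer are given, read 5′ to 3′ toward the gene, for V genes that led the libraries described further on. They are shown because the shared element and its turned orientation in the light chain loci can be seen in them, and the capitals mark the octamer. Each lies on the minus strand of GRCm39.
Ighv9-3, chr12:114104819-114104878: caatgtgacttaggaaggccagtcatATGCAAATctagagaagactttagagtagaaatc
Ighv1-75, chr12:115798092-115798151: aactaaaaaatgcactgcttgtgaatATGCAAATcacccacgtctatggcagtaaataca
Ighv1-76, chr12:115812010-115812069: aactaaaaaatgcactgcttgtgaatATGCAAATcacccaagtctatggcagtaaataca
Ighv3-6, chr12:114252278-114252337: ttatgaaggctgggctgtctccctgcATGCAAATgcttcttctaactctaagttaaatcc
Igkv5-39, chr6:69878037-69878096: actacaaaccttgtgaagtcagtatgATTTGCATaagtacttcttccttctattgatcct
Igkv19-93, chr6:68713813-68713872: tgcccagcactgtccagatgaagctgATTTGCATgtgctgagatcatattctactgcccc
Igkv4-61, chr6:69394483-69394542: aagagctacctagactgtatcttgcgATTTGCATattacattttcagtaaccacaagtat
Iglv1, chr16:18904282-18904341: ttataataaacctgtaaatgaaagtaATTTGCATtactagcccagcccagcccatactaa
The windows of Ighv1-75 and Ighv1-76, 2 members of the large Ighv1 family, are much alike, and those of Iglv1 and Iglv2 were identical. Reads of such close relatives can be split or lost in counting, so values of single V genes, of Iglc1, Iglc2 and Iglc3, and of Ighg2b and Ighg2c are less certain than their sums.

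Libraries held 15045747 to 29521942 reads on listed genes. The labelled cell type was borne out by its defining genes, with Cd3e at 12021 to 22641, Cd4 at 9235 to 16985, Trac at 15639 to 32771 and Foxp3 at 5079 to 37793 over the 24 libraries. The 3 libraries of young mouse 2 stood apart in B cell markers, with the 17 genes of a B cell list summing to 69060 in rTreg, 52903 in aTreg and 57648 in kTreg cells, against 2649 to 22571 in the other 21 libraries. Ms4a1, which encodes the B cell surface protein CD20, was at 2560.0, 1151 and 992 in these 3 libraries and at 0 to 117 in old rTreg cells. Age differences whose call changed without young mouse 2 are therefore given both ways. Young kTreg 4 had 4913 genes at 0, the most of any library, against 419 in the library with the fewest. In bulk libraries a difference in the number of cells of a type and a difference in RNA per cell cannot be told apart.

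Old rTreg cells held the most immunoglobulin RNA. Without Ighm, the members summed to between 0.33% and 0.54% of all signal in the 4 old rTreg libraries, and to at most 0.23% in the other libraries. In every old mouse the order was rTreg above kTreg above aTreg for Igkc, for Jchain, for the summed light chain constant genes, for the summed switched heavy chain genes and for the summed V genes, which is 4 of 4 mice for each of the 5 measures. None of the other constant genes kept this order in all 4 old mice, and Igkc is part of the summed light chain genes. This order within old mice was not tested on its own.

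Jchain was 3280.4, 4212, 9158 and 2941 in rTreg cells of old mice 1, 2, 3 and 4, and 50.3, 1025, 170.1 and 97.4 in rTreg cells of young mice 1, 2, 3 and 4. In kTreg cells it was 1819, 225, 559 and 1243 in the old mice and 10.5, 554, 0 and 0 in the young mice. In aTreg cells it was 296, 100.2, 164 and 423 in the old mice and 18.9, 0, 0 and 9.53 in the young mice. Old and young values did not overlap in rTreg or aTreg cells, and in kTreg cells the single high young value, that of mouse 2, lay inside the old range. In limma, with Benjamini-Hochberg adjustment over the 16630 genes tested, Jchain was higher in old than in young aTreg cells by 5.82 on the log2(value + 1) scale (SE 1.46, adjusted p = 0.0272) and in kTreg cells by 6.36 (SE 1.46, adjusted p = 0.0276). The difference in rTreg cells was 4.67 (SE 1.46) and missed the threshold (adjusted p = 0.0558). Without young mouse 2 it was 5.53 and passed (adjusted p = 0.00134), and the adjusted p was 0.00134 to 0.171 over its 41 alternatives. Without that mouse the difference was 5.17 in aTreg cells (adjusted p = 0.00742) and 8.34 in kTreg cells (adjusted p = 0.000121). The call in aTreg cells was lost in edgeR, without young aTreg 2 or 3 and without any single old aTreg library, and that in kTreg cells in edgeR (2.76, adjusted p = 0.333), in DESeq2 and without young kTreg 1, 3 or 4 or old kTreg 1, 3 or 4. Both calls were also lost with some whole mice left out, and that in kTreg cells with only the groups compared. Over all libraries and mice left out, the difference was 5.17 to 6.61 in aTreg cells and 5.30 to 8.34 in kTreg cells. Over both ages Jchain was lower in aTreg than in rTreg cells by 4.93 (adjusted p = 0.00257), a call that held in all 42 alternatives run for it, and lower in kTreg than in rTreg cells (log2 difference -3.43, adjusted p = 0.0184). That call was lost in edgeR (-1.79, adjusted p = 0.126), in DESeq2 and without young mouse 3, old mouse 2 or old mouse 3, with a difference between -4.42 and -2.90 over the libraries and mice left out. Between kTreg and aTreg cells the difference was 1.501 in limma (adjusted p = 0.394) and 0.19 without young mouse 2, while edgeR (3.19, adjusted p = 0.0334) and DESeq2 (3.14, adjusted p = 0.0301) called Jchain higher in kTreg cells.

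**Figure D1:**
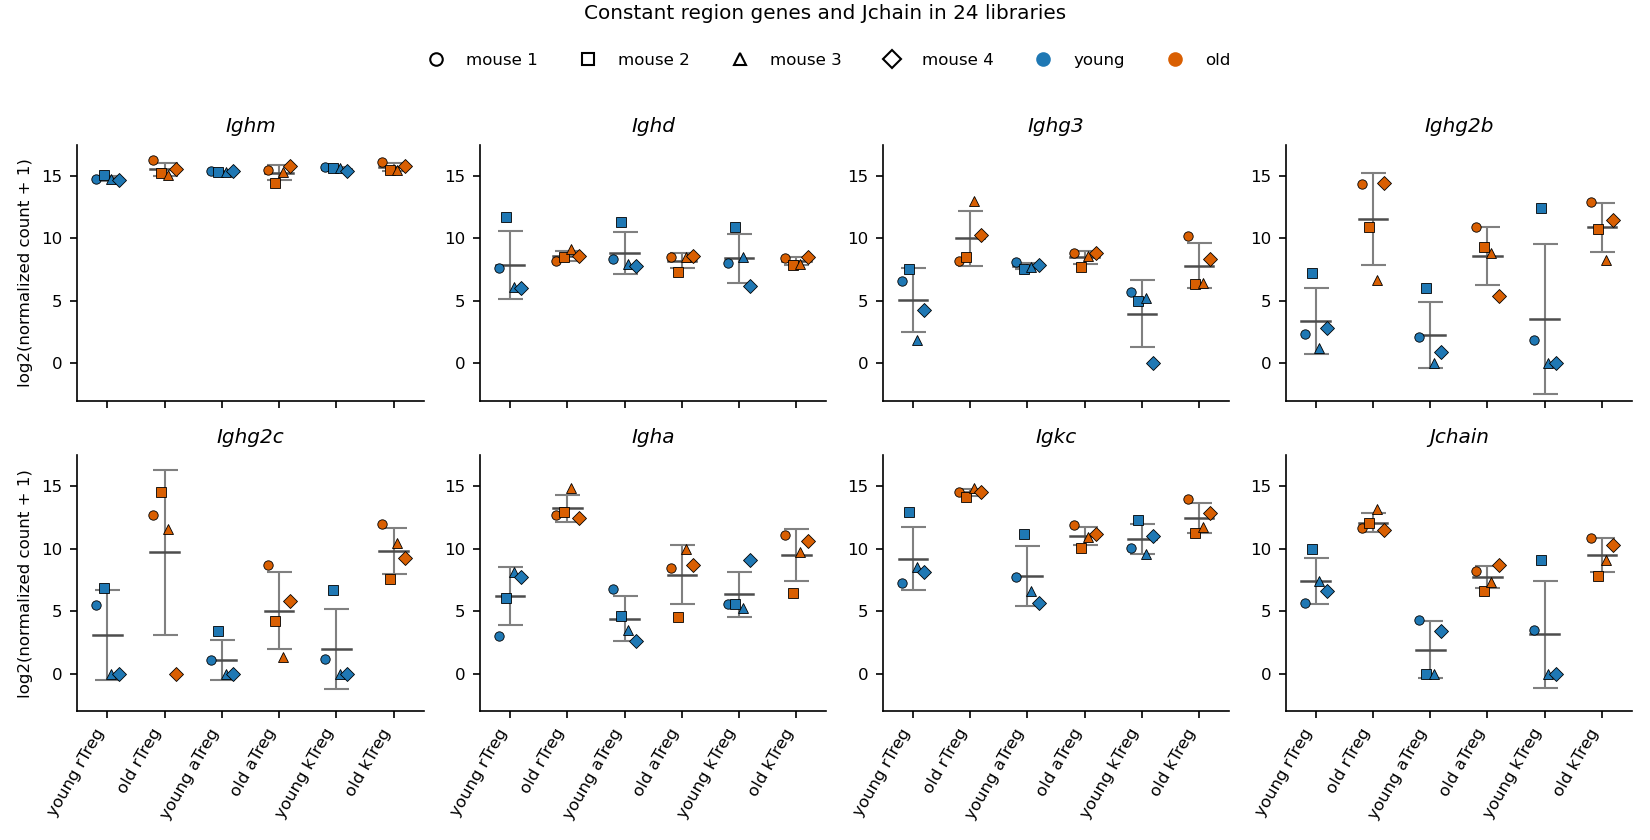
Levels of 7 constant genes and Jchain in each of the 24 libraries, as log2(normalized count + 1), with the group on the horizontal axis, young mice in blue, old mice in orange and the mouse given by the symbol. Horizontal bars give the mean and SD of 4 libraries, Ighm sits near the top of the axis in every group, and Igkc, Igha and Jchain are highest in old rTreg cells.

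Igkc encodes the constant part of the kappa light chain, the light chain of most mouse antibodies. In old mice 1, 2, 3 and 4 it was 23955, 18205, 29306 and 23399 in rTreg cells, 16642, 2479, 3489 and 7411 in kTreg cells and 3799, 1096, 2007 and 2352 in aTreg cells. In young mice it was 155, 7822, 368 and 278 in rTreg cells, 1084, 5066, 771 and 2106 in kTreg cells and 215, 2398, 100.5 and 50.2 in aTreg cells. Young mouse 2 was the highest young mouse in each subset, and in rTreg cells all 4 old mice were above it. The age difference was called in rTreg cells (log2 5.30, SE 1.05, adjusted p = 0.00294), was lost in edgeR (3.46, adjusted p = 0.0793) and missed the threshold in aTreg cells (3.21, adjusted p = 0.116) and kTreg cells (1.72, adjusted p = 0.415). Without young mouse 2, Igkc was higher in old mice in all 3 subsets, by 6.53 in rTreg cells (adjusted p = 1.10e-06), 4.34 in aTreg cells (adjusted p = 0.000384) and 2.24 in kTreg cells (adjusted p = 0.0488). The mean of old rTreg libraries was 11 times that of young rTreg libraries with young mouse 2 and 88.8 times without it. Igkc was lower in aTreg than in rTreg cells by 2.43 (adjusted p = 0.0366). It was higher in kTreg than in aTreg cells in 8 of 8 mice, by 2.18 (adjusted p = 0.0576), which passed with the mouse as a fixed block (adjusted p = 0.00184) or as a random term (adjusted p = 0.0379) and not in edgeR or DESeq2 (0.168 and 0.148).

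The lambda constant genes showed another pattern, each with its highest value in rTreg cells of young mouse 2. Iglc2 was at 1477, 646 and 518 in rTreg, aTreg and kTreg cells of that mouse, at 148 to 578 in old rTreg cells and at 0 to 233 in the other 9 young libraries. Per kilobase of exon, lambda made up 26.3%, 32.7% and 15.7% of light chain constant signal in the 3 libraries of young mouse 2. It made up 18.4% and 36.6% in young rTreg 1 and 3, whose light chain constant genes summed to only 188 and 609 normalized counts, and 0% to 7.68% in the other young libraries. In old mice the share was 1.06% to 3.63% in rTreg cells and 0.26% to 3.29% in the other libraries. Iglc1, Iglc2 and Iglc3 were not called between ages in any subset by limma, edgeR or DESeq2, and without young mouse 2 Iglc1 was higher in old rTreg (5.32, adjusted p = 0.00921) and old kTreg cells (5.19, adjusted p = 0.0284). With the mouse as a fixed block, Iglc1 (-2.96, adjusted p = 0.00480) and Iglc2 (-3.25, adjusted p = 0.00486) were lower in aTreg than in rTreg cells, and Iglc2 (-2.63, adjusted p = 0.0107) and Iglc3 (-1.96, adjusted p = 0.00718) were lower in kTreg than in rTreg cells. With the mouse as a random term these 4 calls were lost (adjusted p = 0.142, 0.121, 0.149 and 0.221 in the same order), as they were without a block.

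Ighm, the IgM heavy chain gene, behaved unlike the other members. It had at least 21778 normalized counts in each of the 24 libraries. In rTreg cells it was 27545, 35486, 27401 and 25748 in young mice and 79259, 39238, 35269 and 48496 in old mice, which overlap only through young mouse 2 and old mouse 3. In aTreg cells the values were 42862, 40034, 40499 and 42449 in young mice and 46958, 21778, 41008 and 56573 in old mice, and in kTreg cells 53843, 50162, 50829 and 42476 and 70866, 45866, 45673 and 56803. The age difference was 0.74 in rTreg cells (SE 0.24, adjusted p = 0.0627), -0.08 in aTreg cells and 0.13 in kTreg cells, and limma and edgeR called none. DESeq2 called Ighm higher in old than in young rTreg cells (0.80, adjusted p = 0.0142), as did 6 of the 41 alternatives in all (adjusted p = 0.0142 to 0.211). Ighm was higher in kTreg than in aTreg cells in 8 of 8 mice, by 0.35 (adjusted p = 0.195). The difference between kTreg and rTreg cells was 0.47 (adjusted p = 0.0477), below the 1.5-fold change that a call also required. Of the normalized counts of all members, not scaled by length, Ighm made up 93.9% to 98.6% in the young libraries outside mouse 2 and 24.1% to 49.3% in old rTreg cells. Across the 24 libraries its level followed Igkc weakly (Spearman's rho 0.353) and Ighj1, a heavy chain J segment, more closely (rho 0.755), as a description over libraries that share mice.

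Ighd, spliced from the same transcript as Ighm in naive B cells, was at 3463, 2552 and 1933 in rTreg, aTreg and kTreg cells of young mouse 2. It was at 65.2 to 372 in the other young libraries and at 160.1 to 565 in the old libraries. Young mouse 2 thus exceeded each of the other 21 libraries more than 3-fold in every subset. No age or subset difference in Ighd was called, and without young mouse 2 it was higher in old than in young rTreg cells by 2.03 (adjusted p = 0.0129).

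The switched isotypes, whose genes class-switched B cells and plasma cells transcribe, summed to 34515, 33509, 55221 and 29088 in rTreg cells of old mice 1, 2, 3 and 4. The same sum was 152, 680.2, 285 and 238 in rTreg cells of young mice. The 2 ranges were far apart, with a ratio of means of 112, and of 169 without young mouse 2. The sum was 15598, 2206, 3719 and 5465 in old kTreg cells and 3241, 929.7, 2452 and 1041 in old aTreg cells. In young mice it was 101, 5877, 74.4 and 542 in kTreg cells and 391, 284, 219 and 237 in aTreg cells, so that only kTreg cells of young mouse 2 came within the old range of their subset.

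Igha, the IgA heavy chain gene, was 6637, 7719, 30017 and 5683 in old rTreg cells and 7.19, 64.2, 281 and 214 in young rTreg cells. In old kTreg cells it was 2254, 86.5, 866 and 1604, and in old aTreg cells 346, 22.7, 1021 and 423. Every old rTreg library was above every other library. The rise with age in rTreg cells was 7.0 (SE 1.27, adjusted p = 0.00138) and held in all 41 alternatives. Igha was lower in aTreg than in rTreg cells by 3.57 (SE 0.90, adjusted p = 0.0112), a call lost without young mouse 3 (difference between -4.50 and -3.01 over the libraries and mice left out). The age differences of 3.53 in aTreg cells (adjusted p = 0.174) and 3.14 in kTreg cells (adjusted p = 0.246) missed the threshold in limma. DESeq2 called the former (3.59, adjusted p = 0.0268), edgeR did not (3.65, adjusted p = 0.133), and 2 of its 41 alternatives passed (adjusted p = 0.0268 to 0.465). None of the 41 alternatives called the latter.

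The IgG genes differed from mouse to mouse. Ighg2b was 20741, 1965, 99.2 and 22177 in old rTreg cells and 4.11, 153, 1.32 and 6.02 in young rTreg cells. Old mouse 3 lay below young mouse 2, and the other old mice were above all young mice. The difference of 8.18 (SE 2.25, adjusted p = 0.0299) was called, but the call was lost without young rTreg 1, 3 or 4 and without old rTreg 1 or 4, among others, with a difference of 7.23 to 9.83 over the libraries and mice left out. In aTreg and kTreg cells the age difference of Ighg2b missed the threshold (6.35, adjusted p = 0.164 and 7.30, adjusted p = 0.114), and without young mouse 2 it passed in both (7.62, adjusted p = 0.0106 and 10.26, adjusted p = 0.00116). Ighg2c was 6828, 23421, 3135 and 0 in old rTreg cells and 45.2, 119, 0 and 0 in young rTreg cells, and was not called in limma (6.61, adjusted p = 0.101). Both edgeR (7.64, adjusted p = 0.0172) and DESeq2 (7.67, adjusted p = 0.0111) called it higher in old mice, as did 4 of its 41 alternatives in all (adjusted p = 0.00270 to 0.334). Ighg1 was at 13829 in rTreg cells of old mouse 3 and at 14.0, 30.2 and 0 in those of old mice 1, 2 and 4. The same mouse had the highest Ighg1 in aTreg cells (596) and in kTreg cells (701). Ighg3 was 295, 374, 8141 and 1228 in old rTreg cells and 95.5, 189, 2.64 and 18.1 in young rTreg cells, with no overlap. Its difference of 4.93 (adjusted p = 0.0181) was called, and the call was lost without young rTreg 3, young rTreg 4 or old rTreg 3, among others (3.86 to 5.77 over the libraries and mice left out). In aTreg cells Ighg3 was at 182 to 275 in young and 213 to 468 in old mice, with an age difference of 0.70 (adjusted p = 0.942). Ighe, the IgE gene, was at 0 in 20 libraries and at 10.5, 4.5, 347 and 0 in old kTreg cells, and did not pass the filter on low values.

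Shares were taken per kilobase of merged annotated exon, so they depend on the annotated lengths, 2678 bases for Ighg2b and 1326 for Ighg2c. By this measure the leading switched isotype in old rTreg cells was Ighg2b in mouse 1 (49.95% of the 6 switched genes), Ighg2c in mouse 2 (82.3%), Igha in mouse 3 (50.6%) and Ighg2b in mouse 4 (76.0%). The leader by this measure was not constant within a mouse. In old aTreg cells it was Ighg2b in mice 1 (52.3%) and 2 (66.8%), Igha in mouse 3 (41.0%) and Ighg3 in mouse 4 (44.1%). In old kTreg cells it was Ighg2c in mice 1 (42.0%) and 3 (52.3%) and Ighg2b in mice 2 (71.3%) and 4 (47.9%). By normalized count, without length scaling, Ighg2b led in every library of old mouse 1, in kTreg cells with 7940 against 4146 for Ighg2c. Young aTreg cells were led by Ighg3 in 4 of 4 mice, at 63.5% to 97.6% of a sum of at most 391 normalized counts. In young aTreg 1, 3 and 4, Ighg3 was at 275, 209 and 231, with Igkc at 215, 100.5 and 50.2. The source of this Ighg3 signal was not tested. Young kTreg 2 was led by Ighg2b, with 95.1%.

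**Figure D2:**
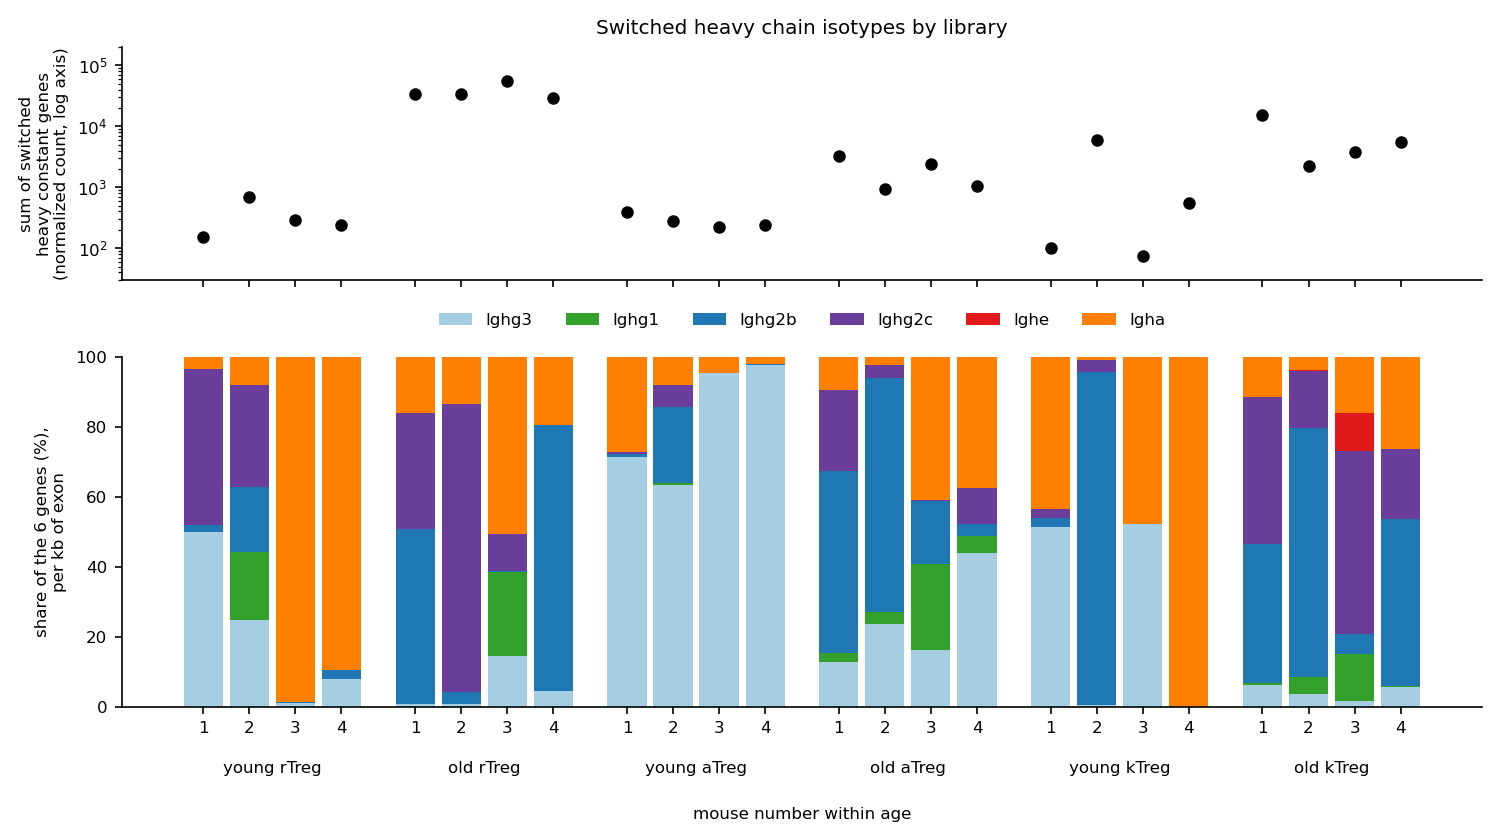
Upper panel, summed normalized counts of the 6 switched heavy chain genes in each library on a log axis. Lower panel, the share of each gene per kilobase of exon in that sum, in percent, with mice numbered within each group. Old rTreg libraries lie at 29088 to 55221 in the upper panel and are led by 3 different isotypes in the lower one.

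V genes were spread over few libraries each. Their sum was 18416, 7749, 16370.0 and 12092 in old rTreg cells, 10939.6, 1076, 1532 and 3720.4 in old kTreg cells and 1931, 488, 464 and 513 in old aTreg cells. In young mice it was 80.1, 5112, 353 and 166 in rTreg cells, 44.5, 3524, 29.3 and 58.6 in kTreg cells and 86.9, 1277, 90.02 and 83.1 in aTreg cells. For 56 of the 87 V genes, over 50% of the signal came from a single library, with a median of 61.5% over the V genes. The library with the highest value was an old rTreg library for 60 V genes, an old kTreg library for 21 and another library for 6. Of the V genes, 10 reached a value of 10 in all 4 old mice, 11 in 3, 32 in 2, 32 in 1 and 2 in none. No listed gene had a read total below 100, so a V gene can be listed through a single library. Ighv1-4, for example, had 99.6% of its signal in old rTreg 2. In each old mouse the V gene sum was largest in rTreg cells, which favours the listing of V genes high there. These counts therefore only describe the listed V genes, and no share over all genes is given.

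Young mouse 2 had the most V genes, with 84, 76 and 76 of the 87 above 0 in rTreg, aTreg and kTreg cells. Old rTreg libraries had 25 to 36 above 0 in spite of larger sums, and the other young libraries had 3 to 24. In young mouse 2 a pair of genes stood out, Ighv3-6 with 1077, 38.7 and 1268 and Igkv4-61 with 1154, 12.1 and 937 in rTreg, aTreg and kTreg cells. Igkv4-61 was at 0 in the other 21 libraries, and Ighv3-6 was at most 79.3 in them.

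**Figure D3:**
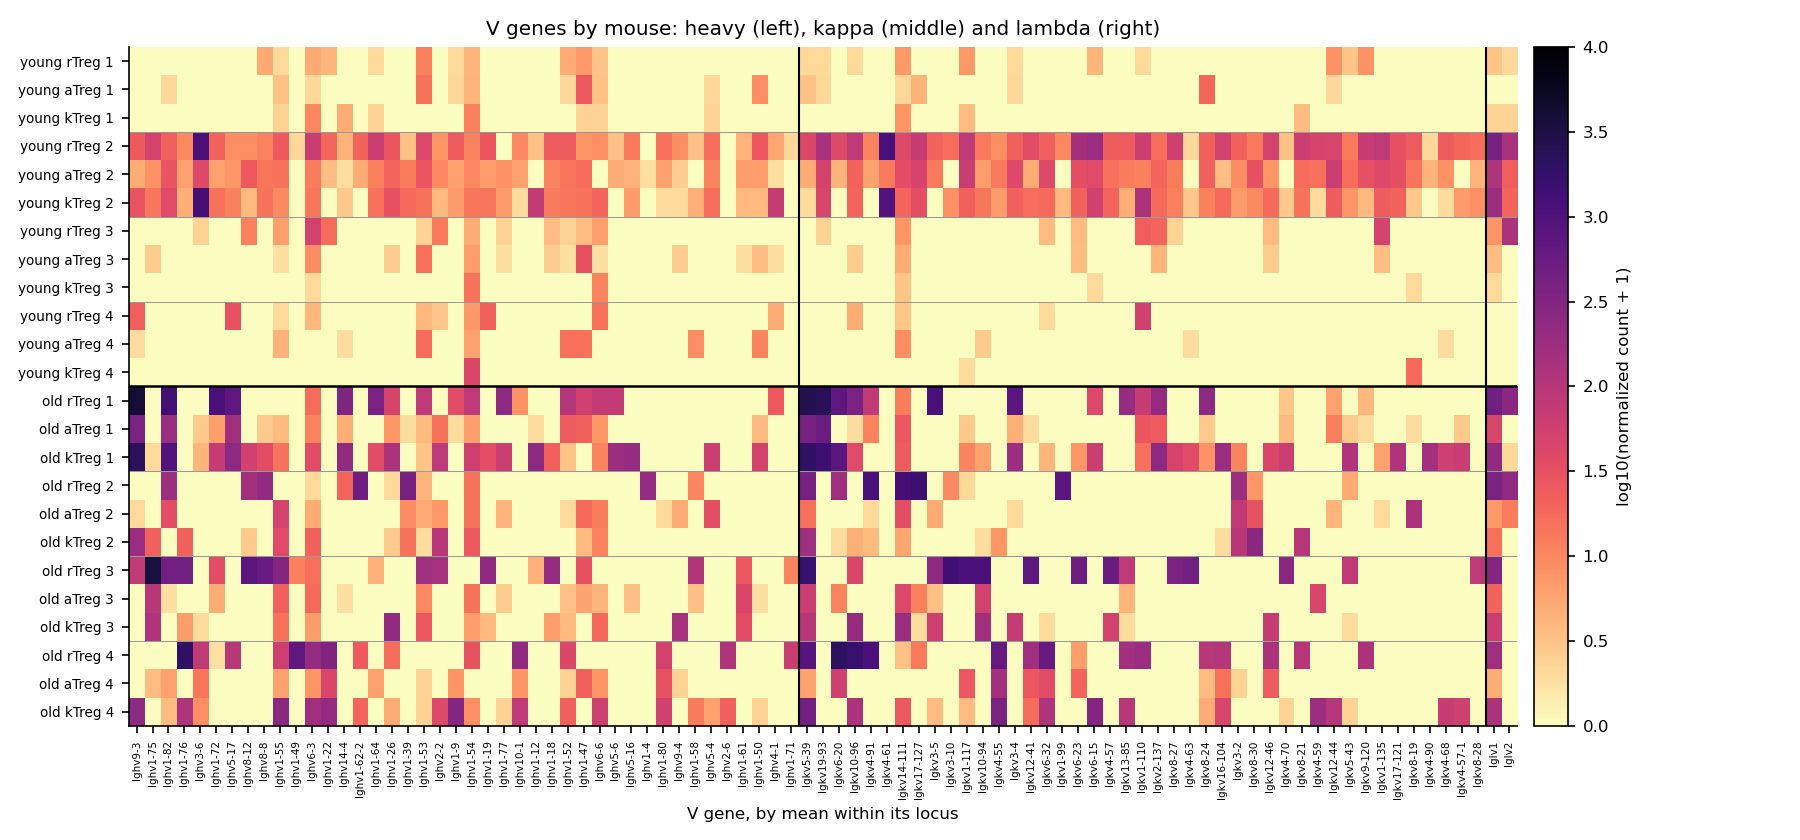
Normalized counts of each V gene (columns, by locus and mean) in each library (rows, by mouse), as log10(normalized count + 1). Young mouse 2 has a broad, pale band with 76 to 84 genes above 0, and old mice have few dark columns each, such as Ighv9-3 in old mouse 1, which is also at 181 and 242 in kTreg cells of old mice 2 and 4.

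The leading heavy V gene of rTreg cells, taken by normalized count, was a different one in each old mouse. Ighv9-3 was at 3970.3 in rTreg, 374 in aTreg and 2286 in kTreg cells of old mouse 1, while rTreg cells of old mice 2, 3 and 4 had 0, 77.0 and 0. It also led the heavy V genes of old kTreg 2 (181) and was at 242 in old kTreg 4, so that it reached 10 in all 4 old mice. Igkv19-93 was at 2362, 536 and 1432 in the same 3 libraries and at 0 in the other 9 old libraries. Ighv1-75 was at 3647, 95.2 and 113 in rTreg, aTreg and kTreg cells of old mouse 3 and at 0 in rTreg cells and at most 20.7 in any library of the other old mice. Ighv1-76 was at 1931 in rTreg and 116 in kTreg cells of old mouse 4 and at 0 in its aTreg cells, and it was also at 468 in rTreg cells of old mouse 3. Bray-Curtis similarity of V gene shares, which is 1 for the same shares and 0 for none in common, had a median of 0.339 over the 12 pairs of libraries from the same old mouse (0.114 to 0.721) and 0.173 over the 54 pairs from different old mice (0.0521 to 0.37). In young mice the medians were 0.219 and 0.131. The ranges overlap, and pairs share libraries, so these are given without a test. V genes that reached 10 in all 3 libraries of a mouse numbered 9, 3, 6 and 6 in old mice 1, 2, 3 and 4, 28 in young mouse 2 and 0 in the other young mice.

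By family, Ighv1, the largest heavy chain V family, made up 40.0% to 81.8% of heavy V signal in old rTreg cells (median 77.7%), 31.1% to 89.6% in old aTreg cells (median 73.3%) and 28.2% to 72.3% in old kTreg cells (median 47.2%), ranges that overlap. The Ighv9 family held 45.7%, 45.4% and 45.5% of heavy V signal in rTreg, aTreg and kTreg cells of old mouse 1, through Ighv9-3. It also held 41.96%, 23.7% and 14.9% in kTreg cells of old mice 2, 3 and 4, against at most 2.75% in their rTreg and aTreg cells. Young libraries outside mouse 2 had 23 to 103 heavy V reads each, so family shares in them rest on few reads.

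Igkv5-39 had the highest mean of the V genes and reached a value of 10 in all 4 old mice. It was 2716, 413, 1709 and 848 in old rTreg cells and 1.03, 42.1, 0 and 0 in young rTreg cells, and 2028, 168, 99.96 and 461 in old kTreg cells against 0, 0.96, 0 and 0 in young kTreg cells. The ages did not overlap in these subsets. In aTreg cells the values were 412, 14.5, 61.4 and 5.21 in old and 2.23, 4.03, 0 and 0 in young mice, again with no overlap. It was higher in old rTreg (log2 8.53, SE 1.23, adjusted p = 0.000143) and old kTreg cells (8.23, adjusted p = 0.000867), and both calls held in all 41 alternatives. The difference in aTreg cells was 4.30 and missed the threshold in limma (adjusted p = 0.0592). It was called in edgeR (6.22, adjusted p = 0.0338), in DESeq2 (6.30, adjusted p = 0.00472) and without young mouse 2 (4.75, adjusted p = 0.0358), and in 7 of 41 alternatives in all (adjusted p = 0.00472 to 0.256). Because the young values are at or near 0, these log2 differences depend on the 1 added before the logarithm. Igkv5-39 led the kappa V genes in 5 of the 12 old libraries and in no young library. In the old rTreg libraries of mice 2 and 4, Igkv17-127 and Igkv6-20 led instead.

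Reads on Igkc and on kappa V genes went together in most libraries. There were 2.67 to 8.95 reads on Igkc for each read on a listed kappa V gene in 21 libraries (median 3.77). In kTreg cells of young mice 1, 3 and 4 there were 92.1, 184 and 121, from 829, 736 and 2300.0 Igkc reads and 9, 4 and 19 kappa V reads. These 3 libraries therefore had Igkc with few kappa V reads, while young kTreg 2, with 5298 and 1638 reads, did not stand apart. For the heavy chain the ratio varied more widely, from 4.83 Ighm reads per read on a listed heavy V gene in old rTreg 3 to 2109 in young kTreg 3.

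**Figure D4:**
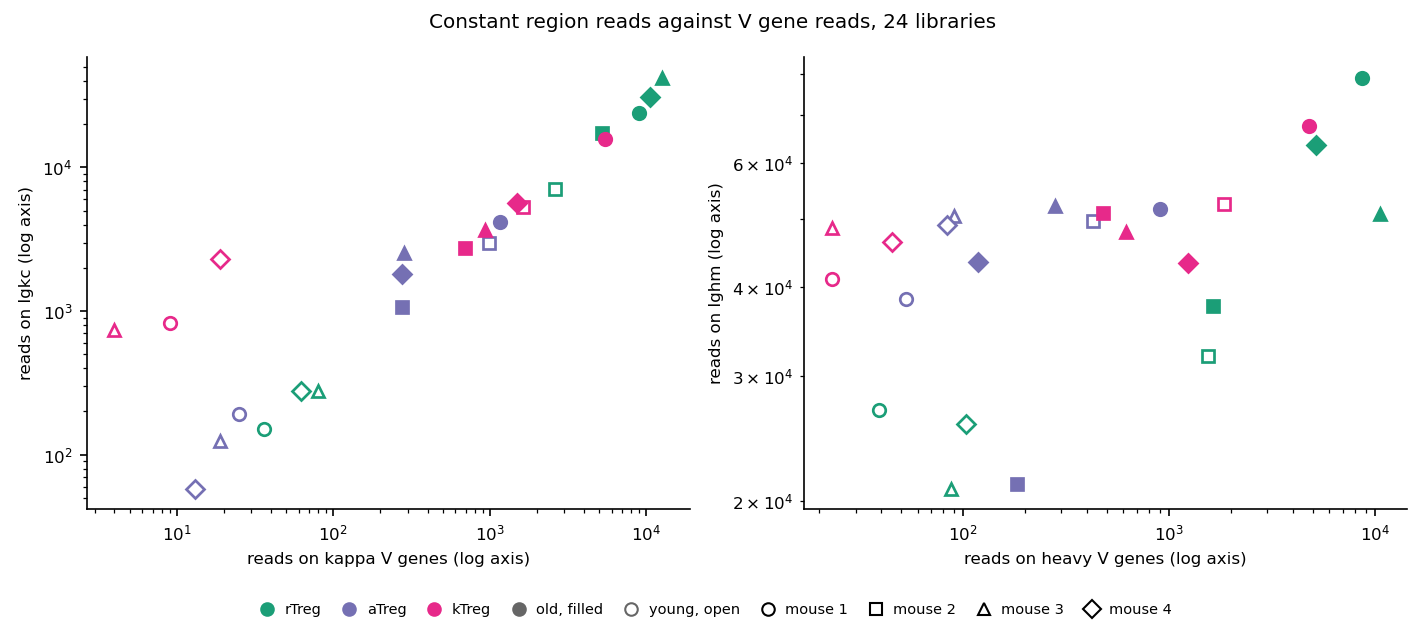
Reads on Igkc against reads on listed kappa V genes (left) and reads on Ighm against reads on listed heavy V genes (right) in the 24 libraries, on log axes, with color for the subset, filled symbols for old mice and the symbol shape for the mouse. On the left, 21 libraries lie along a band of 2.67 to 8.95 Igkc reads per V read and young kTreg 1, 3 and 4 lie above it.

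Of the 100 members, 72 reached 10 in 4 or more libraries and were tested. A gene that is high in a single group passes this filter through that group, so counts over these 72 describe them and support nothing further. Calls needed an adjusted p under 0.05 together with more than a 1.5-fold difference. Between old and young rTreg cells 5 members were called, all higher in old mice (Igkv5-39, Igha, Igkc, Ighg3 and Ighg2b), or 6.94% of those tested. Of all genes tested, 5.83% were called in either direction and 4.12% were called higher in old mice. The median log2 difference was 0.98 over the members and -0.08 over all genes. Between old and young aTreg cells 1 member was called, higher in old mice (Jchain), against 2.71% of all genes in either direction. Called higher in old aTreg cells were 308 of the 16630 genes. Between old and young kTreg cells 2 members were called, both higher in old mice (Jchain and Igkv5-39), or 2.78%. For all genes the share was 1.26% in either direction, and 170 of the 16630 were higher in old mice. The median was 1.29 over the members and 0.12 over all genes. In either direction, the share in rTreg cells is close to that of all genes, and its difference from the 4.12% called higher was not tested. Without young mouse 2 in any subset, 40 members passed the filter, and 10, 4 and 6 were called in rTreg, aTreg and kTreg cells, all higher in old mice, while 5.12%, 1.36% and 1.53% of all genes in that fit were called higher in old mice. Among V genes this fit called Igkv5-39 in each subset, Iglv1 in rTreg (6.76, adjusted p = 0.000141) and kTreg cells (5.42, adjusted p = 0.00441), and Igkv13-85 in rTreg cells (5.35, adjusted p = 0.0427).

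Between subsets, 4 members were called lower in aTreg than in rTreg cells (Jchain, Igha, Igkc and Igkv5-39), or 5.56%. Of all genes, 8.01% were called in either direction and 462 of the 16630 were lower in aTreg cells. The median was -1.06 over the members and 0.06 over all genes. Igkv5-39 was the weakest of these (-2.72, adjusted p = 0.0474) and lost its call in 26 of 42 alternatives, and Igkc in 16 of 42, among them those without old rTreg 1, 3 or 4, with Igkc differences of -2.995 to -1.81 over the libraries and mice left out. Jchain was the 1 member called between kTreg and rTreg cells, and it was lower in kTreg cells. For all genes the share was 15.5% in either direction, and 1012 of the 16630 were lower in kTreg cells. Ighv1-47 was the 1 member called between kTreg and aTreg cells, against 7.39% of all genes in either direction. Lower in kTreg cells were 542 of the 16630 genes. Ighv1-47 was lower in kTreg cells by 3.27 (SE 0.81, adjusted p = 0.00935). It was 24.5, 16.1, 30.5 and 13.9 in young and 19.99, 16.5, 4.72 and 20.8 in old aTreg cells, and 1.31, 13.4, 0 and 0 and 0, 2.70, 0 and 0 in kTreg cells. The aTreg value was the higher one in each mouse, at levels of few reads, and the call was lost without young mouse 3.

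With the mouse as a fixed block, 9 of the 72 members were lower in aTreg than in rTreg cells, against 3.17% of all genes, and 6 were lower in kTreg than in rTreg cells, against 6.43% of all genes. In kTreg against aTreg cells 1 was higher (Igkc) and 1 lower (Ighv1-47), against 8.04% of all genes in either direction. With the mouse as a random term the first and second of these counts were 4 and 1, as without a block, against 2.96% and 6.39% of all genes. For differences of a subset contrast between the ages, limma called 0 members in each of the 3 interactions, against 0.156% of all genes for kTreg and aTreg cells, 3.02% for kTreg and rTreg cells and 1.56% for aTreg and rTreg cells. At an unadjusted p below 0.05 with the fold threshold 7 members passed in at least 1 of them, against 25% of all genes. In edgeR 0 members were called, against 3.17% of all genes, and in DESeq2 5 were, against 7.58%. With the mouse as a fixed block, Igkc was called for kTreg and rTreg cells (interaction -3.57, adjusted p = 0.0214), as were 3.51% of all genes. It was not called with the mouse as a random term (adjusted p = 0.159) or without a block (adjusted p = 0.211), and was called without young mouse 2 (-4.29, adjusted p = 0.00458). The values had kTreg above rTreg cells in 3 of 4 young mice and rTreg above kTreg cells in 4 of 4 old mice.

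**Figure D5:**
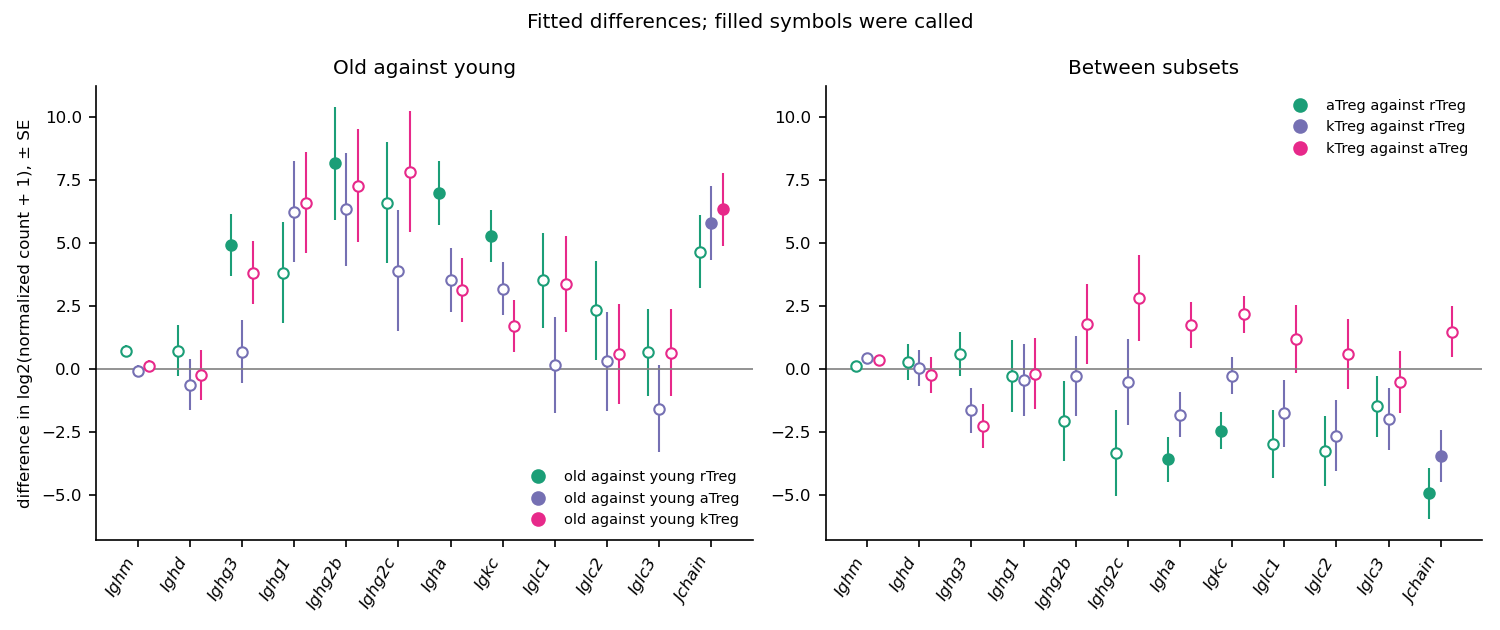
Fitted differences for the constant genes and Jchain between the ages (left) and between subsets (right), on the log2(normalized count + 1) scale, with bars of 1 SE and filled symbols for calls. Old rTreg cells were called higher for Ighg3, Ighg2b, Igha and Igkc, and the differences for Ighm lie near 0 beside the others.

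The genes of antibody secretion and of B cell identity were read from lists chosen with results of these data known. Of 11 plasma cell genes tested, 3 were higher in old than in young rTreg cells, against 4.12% of all genes. These were Sdc1 (4.13, adjusted p = 0.00661), which encodes the surface marker CD138, Txndc5 (0.82, adjusted p = 0.000543), a protein disulfide isomerase of the endoplasmic reticulum, and Prdm1 (1.51, adjusted p = 0.0135), the transcription factor Blimp1, which activated T cells also express. Mzb1, which aids antibody folding, was at 51.1, 11.4, 65.9 and 35.1 in old rTreg cells and at 1.03, 185, 1.32 and 0 in young rTreg cells. The 11 plasma cell genes summed to 15063 to 15593 in old rTreg, 10875 to 12837 in young rTreg and 16398 to 18670 in young kTreg cells. Txndc5 was at 3325 to 4279 in old rTreg and 3922 to 4864 in young kTreg cells, and Prdm1 at 382 to 934 and 2944 to 3763. Sdc1 was at 148 to 232 in old rTreg, 45.5 to 244 in old aTreg and 27.5 to 339 in young kTreg cells. Of 15 B cell genes tested, 0 were called between old and young rTreg cells in limma. The median over this list was -0.93. The sum of the list was 9808 to 14888 in old rTreg cells and 5069, 69060, 3517 and 2649 in rTreg cells of young mice 1, 2, 3 and 4. Every old rTreg library was thus above every young one except that of mouse 2, which the calls and the median include. The 4 old rTreg libraries held high Igkc, Igha and Jchain. The 3 libraries of young mouse 2 held high sums of the B cell list and high Ighd. That mouse also had the highest young Igkc in each subset and the highest young Jchain in rTreg and kTreg cells. The cell types behind these values were not tested. Of 12 genes that act on or with immunoglobulins (recombination, receptors for antibody, octamer factors), Dntt (-3.57, adjusted p = 0.00212) and Pou2af1 (-2.33, adjusted p = 0.0367) were lower in kTreg than in rTreg cells, as were 1012 of all 16630 genes tested. Pou2f2 (-1.07, adjusted p = 0.00120) was lower in old than in young aTreg cells, as were 143 of the 16630. In limma no other call was made among these 12 genes.

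Heavy chain D and J segments, looked at after the values of Ighm had been seen, went with Ighm rather than with Igkc. Ighj1 was 54.4, 89.7, 15.8 and 32.1 in young rTreg cells and 147 to 387 in the other 20 libraries. It was higher in aTreg than in rTreg cells by 1.45 (adjusted p = 0.00107), in kTreg than in rTreg cells by 1.62 (adjusted p = 0.000136) and in old than in young rTreg cells by 2.54 (adjusted p = 0.000265). Of the 5 segments, 4 were higher in old than in young rTreg cells (4.12% of all genes), 3 in aTreg than in rTreg cells (5.23%) and 3 in kTreg than in rTreg cells (9.37%), in a set chosen after its values could be seen. The rho between Ighj1 and Igkc was 0.105.

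Markers of myeloid cells also differed between the groups. The 7 genes of a monocyte and macrophage list summed to 10165 to 26652 in old rTreg cells, 2171 to 3629 in old kTreg cells and 248 to 408 in old aTreg cells. This is the order of Igkc and Jchain in the old mice. In young mice they summed to 608 to 9020 in rTreg cells, 94.4 to 3210 in aTreg cells and 61.3 to 32282 in kTreg cells, with young mouse 2 highest in each subset. Lyz2 was at 16258, 9633, 25153 and 9381 in old rTreg cells. The part of these cells in the immunoglobulin values was not tested. Neutrophil genes summed to 12.02 to 10889 and erythroid genes to 787 to 2361 in old rTreg cells, and to 26.1 to 2834 and 77.3 to 6912 in young rTreg cells. NK cell genes summed to 1489 to 2765 in old and 333 to 764 in young rTreg cells.

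Over the 24 libraries, the 10 genes outside the members whose level ranked most like Jchain were Krt80 (rho 0.907), Prg2 (0.900), Gm53692, Itga2b, Alox5, Ccl9, Ifitm1, Ccl6, Nfe2 and Ifitm3 (0.815). For Igkc they were Mzb1 (0.874), Pkmyt1, Fcgr2b, Napsa, Wfdc17, Nfe2, Cd68, Krt80, Prg2 and Rassf4 (0.840). Foxp3 had a rho of -0.03 with Jchain and 0.03 with Igkc. These libraries share mice, groups and depth, so the values describe the 24 libraries and carry no test.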

How the data were processed

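The authors sorted rTreg, aTreg and kTreg cells from spleens by FACS, made cDNA with SMART-Seq v4 and sequenced paired-end reads. Per the labels they used HISAT2 2.2.1, SAMtools 1.13, HTSeq 1.99.2 and DESeq2 1.44.0 with GRCm39. The annotation release, strand setting and treatment of multiply mapped reads are not given in the sources used here. The authors deposited a signal in which the gene counts of a library were scaled by its size factor. Each listed gene had at least 100 reads in sum. All values came out as whole reads (tolerance 0.01 reads). Of 17464 identifiers, 17353 matched GENCODE M39. Reads hold PCR copies and no molecular identifiers, so the spread between mice served as the error.

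limma 3.58.1 (R 4.3.3) with a mean-variance trend was fitted on log2(value + 1) to 6 groups over the 16630 genes that reached 10 in 4 or more libraries, with equal weight to the ages in subset contrasts and Benjamini-Hochberg adjustment over all genes. Alternatives were other pseudocounts and filters, the mouse as a replicate block, edgeR 4.0.16, DESeq2 1.42.0, size factors without members, other thresholds and each library or mouse left out. The fit was tested on simulated data. Sums, shares, similarities and correlations were given without tests. The series' design states that subsets came from the same mice, which pairs the libraries. Over all genes, deviations of same-mouse libraries correlated between -0.06 and 0.35. Over the tested members alone the correlations were higher at the top of the range, between 0.05 and 0.57. The consensus correlation, which the random term used, was taken over all genes tested and was 0.062. The main fit has no mouse term, so subset differences are also given with the mouse as a fixed block.

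The members and gene lists were chosen with earlier results of these data known. Text names all constant genes and Jchain, the leading V genes of loci or of libraries described, and called V genes. Tnfrsf17, Rag1, Rag2, Igll1, Vpreb1, Vpreb2 and Pigr were not analysed here, and 1 gene of the lists is not reported here.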

Additional observations from a re-analysis of the deposited data

Results flagged for a closer look

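Dixon's criterion was applied to 90 groups of 4 libraries. These were the constant genes, Jchain and the summed light chain, switched heavy chain and V genes in 6 groups. In 40 of the 90, 1 library lay far from the other 3. Of these 40, 29 were libraries of young mouse 2, each the highest of its group. The criterion flags about 1 in 20 groups by chance if values are normally distributed. Normalized counts were used without a logarithm and need not meet this, and the sums hold genes also looked at singly. The 40 can therefore not be set against that rate, and the flags only describe the libraries.

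In rTreg cells of young mouse 2 these were Ighd (3462.9), Ighg1 (155.1), Ighg2b (152.9), Igkc (7821.9), Iglc1 (464.2), Iglc2 (1476.6), Iglc3 (816.4), Jchain (1024.7), the summed light chain constant genes (10579.1) and the summed V genes (5112.3). In its aTreg cells they were Ighd (2551.8), Ighg1 (1.6), Ighg2b (66.1), Ighg2c (9.7), Igkc (2397.8), Iglc1 (134.7), Iglc2 (646.0), Iglc3 (378.3), the summed light chain constant genes (3556.7) and the summed V genes (1276.7). In its kTreg cells they were Ighd (1933.5), Ighg2b (5693.4), Ighg2c (106.1), Iglc1 (145.3), Iglc2 (518.3), Iglc3 (273.5), Jchain (553.7), the summed switched genes (5877.0) and the summed V genes (3523.7).

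Old mouse 3 was the highest of its group for Ighg1 in rTreg (13828.7), aTreg (595.7) and kTreg cells (700.7), for Ighg3 (8140.9) and Igha (30016.9) in rTreg cells and for Ighe in kTreg cells (346.5). Old aTreg 1 was highest for Ighg2c (425.2) and the summed V genes (1930.7). Old aTreg 2 was highest for Iglc2 (33.1) and lowest for Ighd (160.1). Young kTreg 4 was highest for Igha (542.0). What sets these libraries apart was not tested.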

How the results depend on the processing

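Counts of called members were small and moved with the settings, while the 10 fold changes followed kept their sign in the alternatives run. Their calls were lost in 8 cases and held in 86 with other settings, and were lost in 60 and held in 260 with a library or mouse left out. Counts are given for kTreg against aTreg, kTreg against rTreg, aTreg against rTreg, old against young rTreg, aTreg and kTreg cells, and the interactions, which were 1, 1, 4, 5, 1, 2 and 0 as reported. With the mouse as a fixed replicate block the subset counts were 2, 6 and 9 and the interaction count 1, and with the mouse as a random term kTreg against aTreg had 2. DESeq2 gave 8, 6, 11, 7, 7 and 6 and 5 interactions, and edgeR gave 2, 2, 6, 6, 1 and 1 and 0 interactions. The DESeq2 calls went both ways in 2 comparisons. In kTreg against aTreg cells 5 were higher and 3 lower, and in old against young aTreg cells 3 were higher and 4 lower. An unadjusted p with the fold threshold gave 3, 3, 12, 15, 6 and 14 and 7 interactions. With only the groups compared, kTreg against aTreg had 2, old against young aTreg 3 and old against young kTreg 1. For kTreg against rTreg, no filter and the adjusted p alone each gave 2. Leaving out each library or mouse gave 0 to 2, 0 to 3, 1 to 6, 3 to 10, 0 to 4, 1 to 6 and 0 to 1 in the same order, with 3 members for old against young rTreg cells without young rTreg 3, young rTreg 4 or young mouse 3 and 10 without young mouse 2. The causes were not tested. Low read numbers limit V gene values in young libraries outside mouse 2, which held 28 to 268 V reads each at total depths within the range of the other libraries, and fold changes against values near 0 depend on the pseudocount.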
